A study of Mus musculus with 81 samples.

Results

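Iron and heme handling was followed through 9 genes, Slc40a1, Hmox1, Cd163, Spic, Slc11a1, Slc48a1, Tfrc, Hfe and Blvrb, in sorted mouse macrophages with and without Irf8. They were chosen by name, with earlier results of these data known. Each was read through the brightest Affymetrix probe that carries its symbol and no other. Each of the 9 has 1 such probe, and all 9 were among the 17099 genes tested of 22180 with such a probe. Values are log2 signals, so a difference of 1 is a doubling, and levels are set against each other only within a gene. A signal of 3.04, the median of all values in the table, was taken as a floor: below it a level has no order, and a ratio to a group with every sample there is given as a lower bound.

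Irf8 encodes an interferon regulatory factor that acts in the myeloid lineage, often in complexes with the ETS factor PU.1. Cells were sorted from Irf8 knockout and wild-type mice at E9.5 (the yolk sac progenitor populations A1 and A2), at E14 and at 6 weeks of age. At both later stages microglia, Kupffer cells, F4/80high kidney macrophages and the CD11bhigh gates of liver and kidney were taken, with Langerhans cells of the skin in adults only and erythro-myeloid progenitors (EMP) from E8 yolk sacs of wild type only. The 80 samples form 27 groups, 13 knockout groups with 39 samples and 14 wild-type groups with 41, each with 3 samples except the E14 kidney F4/80high wild type with 2. The descriptions give every wild-type E14 Kupffer sample the same replicate number, and likewise every wild-type E14 liver CD11bhigh sample. They also repeat a number in the E14 liver CD11bhigh knockout. The titles number these samples apart and were followed. Since nothing says that the samples of a group came from separate animals, p-values measure only the spread between these samples.

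The labels do not say which part of Irf8 is deleted, so the Irf8 probe cannot check them: its mean was 5.72 in knockout and 8.74 in wild-type E14 liver CD11bhigh macrophages, but 8.94 in knockout and 8.68 in wild-type A2 cells. It passed lower in 4 of the 13 knockout populations (E14 and adult liver CD11bhigh, adult kidney CD11bhigh and Langerhans cells), higher in none, and did not pass in 9. Lists of cell type markers followed the labels in wild type. The mean signal of 7 microglia markers was 9.30 to 10.26 in wild-type microglia and at most 6.19 in the other wild-type groups, and that of 8 Kupffer cell markers was 8.57 to 10.10 in wild-type Kupffer cells and at most 4.82 elsewhere in wild type. In E14 Kupffer cells the knockout stood lower on that list, at 5.70 to 6.42 against 8.57 to 8.73 in wild type. E14 liver CD11bhigh macrophages carried neutrophil markers at a high level in both genotypes (15 genes, 10.22 to 10.28 in the knockout and 9.35 to 9.60 in wild type). The titles of the Langerhans cell samples name GFP+ cells in wild type only, so genotype and that gate cannot be told apart there. In adult Kupffer cells sex moved with genotype: 1 of 4 sex-linked genes was higher and 3 were lower in the knockout.

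Macrophages of the liver and spleen recover iron from spent red cells. Hemoglobin bound to haptoglobin enters through CD163, and heme from digested red cells leaves the phagolysosome through HRG1, the product of Slc48a1. Heme oxygenase 1 (Hmox1) opens the ring, and Blvrb encodes a biliverdin reductase. NRAMP1 (Slc11a1) moves divalent metal out of the phagosome, and ferroportin (Slc40a1) exports iron from the cell. Transferrin receptor 1 (Tfrc) takes up transferrin-bound iron, HFE binds that receptor and acts on hepcidin control, and SPIC is an ETS factor that heme induces and that red pulp macrophages of the spleen need.

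The starts of 6 of the 9 genes were found in RefSeq windows of GRCm38.p6, each running from 250 bases before to 50 bases after an annotated start, 8 windows in all. They are shown because IRF8 and PU.1 act at such elements, and 4 of the windows are printed, the 3 with a match and that of Spic. Both strands were searched for the PU.1 box GAGGAA, the IRF-ETS composite with the ETS part first or the IRF part first, the core of the interferon-stimulated response element (ISRE), and the element TGACNNNGC to which NRF2 and BACH1 bind. The composites can overlap the ISRE core. Capitals mark a match.
Slc11a1 (chr1:74374953-74375252, plus strand, PU.1 box at -152 from the start): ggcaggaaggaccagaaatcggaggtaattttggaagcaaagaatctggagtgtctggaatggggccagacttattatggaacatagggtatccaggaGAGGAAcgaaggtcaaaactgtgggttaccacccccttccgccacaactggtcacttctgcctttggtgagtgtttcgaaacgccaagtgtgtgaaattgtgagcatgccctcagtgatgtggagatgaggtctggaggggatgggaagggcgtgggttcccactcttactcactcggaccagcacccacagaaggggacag
Blvrb (chr7:27452168-27452467, plus strand, composite with the ETS part first at -216): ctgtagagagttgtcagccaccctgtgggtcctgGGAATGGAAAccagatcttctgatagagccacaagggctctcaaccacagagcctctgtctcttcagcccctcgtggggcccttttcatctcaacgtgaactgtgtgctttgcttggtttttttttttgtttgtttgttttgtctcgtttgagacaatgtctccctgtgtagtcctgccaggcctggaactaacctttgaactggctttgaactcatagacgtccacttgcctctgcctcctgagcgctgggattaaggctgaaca
Hfe (chr13:23710805-23711104, minus strand, NRF2 and BACH1 element at -67): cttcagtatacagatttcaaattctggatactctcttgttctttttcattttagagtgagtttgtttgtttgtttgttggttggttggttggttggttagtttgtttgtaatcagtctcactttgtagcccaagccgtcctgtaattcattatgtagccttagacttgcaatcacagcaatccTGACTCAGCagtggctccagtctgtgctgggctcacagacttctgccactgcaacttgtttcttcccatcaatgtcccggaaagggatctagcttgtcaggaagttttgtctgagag
Spic (chr10:88682974-88683273, minus strand, no match): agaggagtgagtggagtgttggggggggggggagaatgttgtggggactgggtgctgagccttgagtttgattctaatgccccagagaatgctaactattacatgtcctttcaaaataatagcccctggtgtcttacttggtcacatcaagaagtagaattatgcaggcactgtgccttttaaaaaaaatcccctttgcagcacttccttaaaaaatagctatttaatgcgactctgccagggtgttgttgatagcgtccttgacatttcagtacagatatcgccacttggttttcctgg
Of 32851 such windows, 28.28% held GAGGAA, 12.39% held TGACNNNGC, 2.715% held the composite with the ETS part first, 2.804% that with the IRF part first and 3.443% the ISRE core. A match is a description of the letters only. The windows of Cd163 and Tfrc and the other window of Blvrb (chr7:27447728-27448027) held no match. That other window covers the first base of the Blvrb gene, 27447978. The printed Blvrb window lies at a further start inside the gene, which runs to 27465981.

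In wild type each of the 9 genes had its highest mean in Kupffer cells, 5 of them at E14 and 4 in the adult, though not always apart from the next group. Slc40a1 averaged 10.79 ± 0.16 in adult Kupffer cells and 10.58 ± 0.27 in E14 Kupffer cells (SD, n = 3 each), whose samples overlapped. Kidney F4/80high macrophages at E14 followed at 9.19 ± 0.01 (n = 2), below both without overlap. Microglia at E14, A2 cells, adult microglia and adult kidney F4/80high macrophages came next with means of 8.39, 8.30, 7.81 and 7.35, and neighbours in that order overlapped. At the low end stood adult kidney CD11bhigh macrophages, EMP, A1 cells and adult liver CD11bhigh macrophages, with means of 4.56, 3.90, 3.88 and 3.81 that also overlapped, and Langerhans cells at 2.61 ± 0.53, with 2 of 3 samples under the floor.

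Hmox1 was at its highest in E14 Kupffer cells (11.70 ± 0.28), E14 kidney F4/80high macrophages (11.31 ± 0.38), adult Kupffer cells (11.08 ± 0.15) and A2 cells (11.01 ± 0.23), an order in which neighbours overlapped, and at its lowest in EMP (6.53 ± 0.14). Slc48a1 averaged 9.28 ± 0.17 in E14 Kupffer cells, above adult Kupffer cells at 8.39 ± 0.12, with Langerhans cells lowest at 5.18 ± 0.58. Blvrb peaked in E14 Kupffer cells at 8.99 ± 0.19 and EMP at 8.80 ± 0.15, which overlapped. These were also the groups with the highest mean signal of 9 erythroid markers, 7.39 to 7.81 in wild-type E14 Kupffer cells and 7.66 to 8.04 in EMP, against at most 4.94 in the other wild-type groups. The part of red cell RNA in the Blvrb signal was not tested.

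Tfrc followed the same pair, with 9.11 ± 0.08 in E14 Kupffer cells and 9.02 ± 0.10 in EMP, which overlapped, and was lowest in E14 and adult microglia (4.76 ± 0.07 and 4.60 ± 0.16). Hfe was highest in adult and E14 Kupffer cells (8.23 ± 0.16 and 8.18 ± 0.16, overlapping) and lowest in Langerhans cells (3.14 ± 0.32) and EMP (2.95 ± 0.60). Slc11a1 was highest in adult Kupffer cells, adult kidney F4/80high macrophages and E14 Kupffer cells, at 8.98 ± 0.14, 8.87 ± 0.17 and 8.65 ± 0.07, each overlapping its neighbour, and lowest in EMP at 3.34 ± 0.17.

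The scavenger receptor gene Cd163 and the regulator Spic had the most restricted patterns. Cd163 read 9.38, 9.27 and 8.97 in the adult Kupffer cell samples, and no other wild-type sample passed 7.13, the level of 1 adult kidney F4/80high sample. Spic stood at 9.83 ± 0.05 in E14 Kupffer cells, 8.78 ± 0.22 in adult Kupffer cells, 8.0 ± 0.20 in adult and 7.02 ± 0.15 in E14 kidney F4/80high macrophages, each apart from the next without overlap, and near the floor in microglia, Langerhans cells, A2 cells and EMP.

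**Figure D1:**
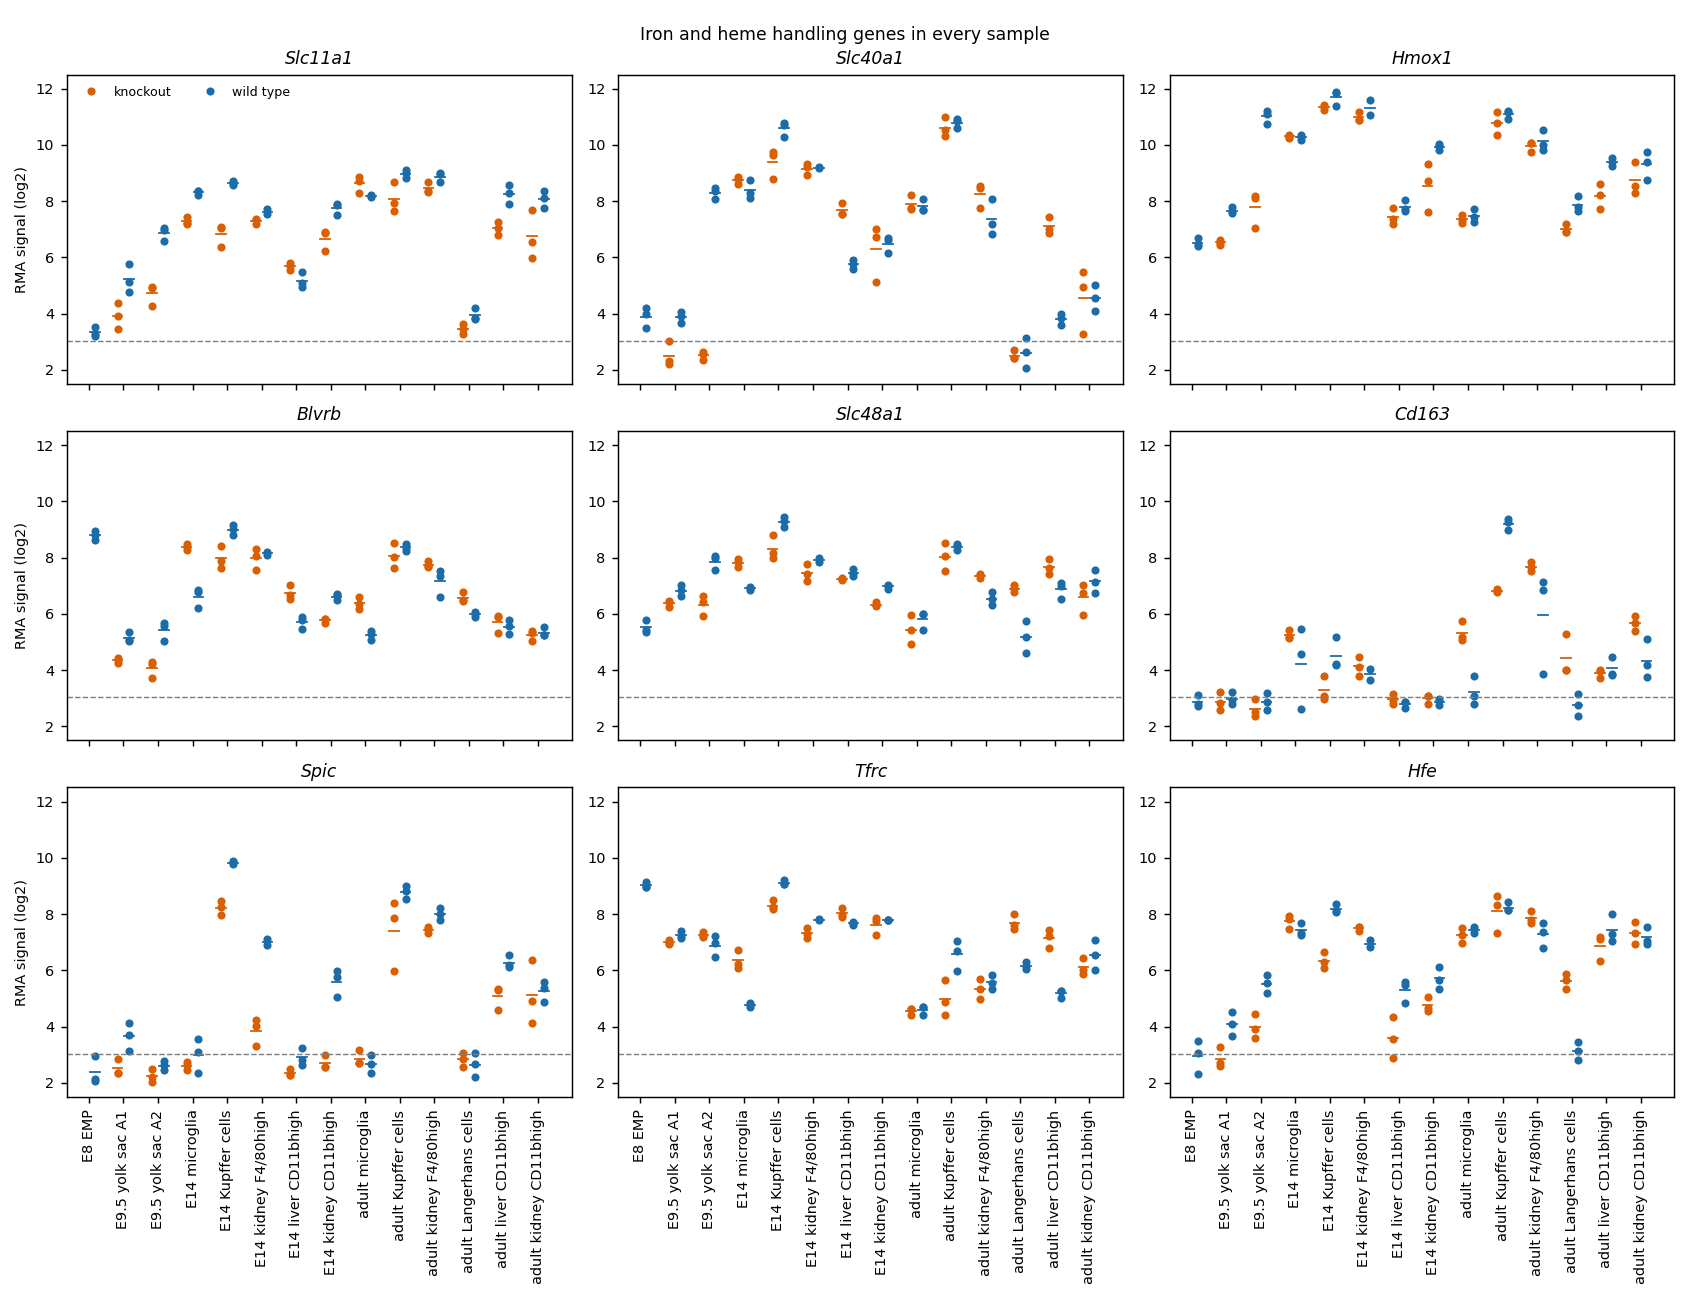
Log2 RMA signal of each gene (vertical axis) in every sample of every population (horizontal axis), knockout samples in orange to the left of wild-type samples in blue; bars are group means and the dashed line is the floor of 3.04. Slc40a1 in A2 cells lies under the floor in the knockout and above 8 in wild type, and Cd163 exceeds 8 in wild-type adult Kupffer cells alone.

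Irf8 knockout and wild type were compared within each of the 13 populations, which asks where these genes depend on the Irf8 genotype. Of 117 differences (9 genes in 13 populations), 54 passed an adjusted p of 0.05 in limma's fit across all genes, or 46.2%. Of these, 18 were higher and 36 lower in the knockout. Over all genes tested the share was 12.9%. As the genes were chosen with earlier results of these data known, the shares here and below are descriptions and no test. Slc11a1 (8 populations), Hmox1 (5) and Spic (5) were lower wherever they passed. Under other settings Slc11a1 also passed higher in E14 liver CD11bhigh macrophages, as given below, and Spic passed lower in A1 cells (-1.15 to -1.28) with array weights (adjusted p = 4.2e-04), with the compared groups alone (0.038) and with the floor at the 75th percentile (0.046), against 0.061 here. Every knockout A1 sample of Spic lay under the floor (at most 2.85), so its difference there gives a direction but no size. Hfe passed lower in 5 populations and higher in 1, and Blvrb lower in 4 and higher in 4. Slc48a1 passed lower in 2 and higher in 4, Tfrc lower in 2 and higher in 3, Cd163 lower in 2 and higher in 4, and Slc40a1 lower in 3 and higher in 2. With array weights Cd163 also passed higher in E14 microglia (adjusted p = 0.024). Slc48a1 passed lower in E14 kidney CD11bhigh macrophages with array weights (0.044) and the floor at the 75th percentile (0.043). With the compared groups alone Tfrc passed higher in E14 liver CD11bhigh macrophages (0.018).

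In the yolk sac and E14 Kupffer populations every gene that passed was lower in the knockout. There 1 mean was higher without passing, that of Tfrc in A2 cells (7.26 in the knockout and 6.88 in wild type). In A2 cells 6 of the 9 genes passed, all lower, where 10% of all genes tested passed; the median of the 9 was -1.53 on the log2 scale and that of all genes 0.02. In A1 cells 5 passed, all lower, against 3.36% of all genes, with a median of -1.14 against 0.01. In E14 Kupffer cells 8 passed, all lower, against 23% of all genes, with a median of -1.20 against 0.03. E14 kidney CD11bhigh macrophages had 5 genes lower and none higher, against 14% of all genes, and adult Kupffer cells had 4 lower and none higher, against 11.9%. These shares depend on the spread taken over all groups. With the compared groups fitted alone, the genes passing in adult Kupffer cells fell from 2032 to 129 of 17099. The calls of Slc11a1, Spic and Tfrc ended there. In other populations the number rose, as in A1 cells from 574 to 1104.

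Elsewhere the genes split or moved up, apart from E14 kidney F4/80high macrophages. There 7 of 9 means were lower in the knockout, with a median of -0.33 against -0.005 over all genes. In Langerhans cells 5 were higher and 1 lower, against 27% of all genes, and in adult liver CD11bhigh macrophages 3 were higher and 3 lower, against 16.8%. E14 microglia had 3 higher and 1 lower, against 14.3%, and E14 liver CD11bhigh macrophages 2 higher and 1 lower, against 14%. The shares of genes passing were 2 of 9 in adult microglia (both higher, against 14.6% of all genes), 2 of 9 in adult kidney F4/80high macrophages (both higher, against 3.56%), 2 of 9 in adult kidney CD11bhigh macrophages (1 each way, against 13.6%) and 1 of 9 in E14 kidney F4/80high macrophages (lower, against 1.97%). With the compared groups alone, 143 of all 17099 genes passed in adult kidney CD11bhigh macrophages, against 2332 here, and both calls ended. The medians of the 9 genes were -0.84 in E14 kidney CD11bhigh, -0.35 in adult Kupffer, 0.58 in Langerhans, -0.16 in adult liver CD11bhigh and 0.37 in E14 microglia, against -0.03, -0.04, -0.01, -0.02 and 0.03 over all genes. In bulk samples such as these, fewer cells of a type and less RNA per cell cannot be told apart.

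**Figure D2:**
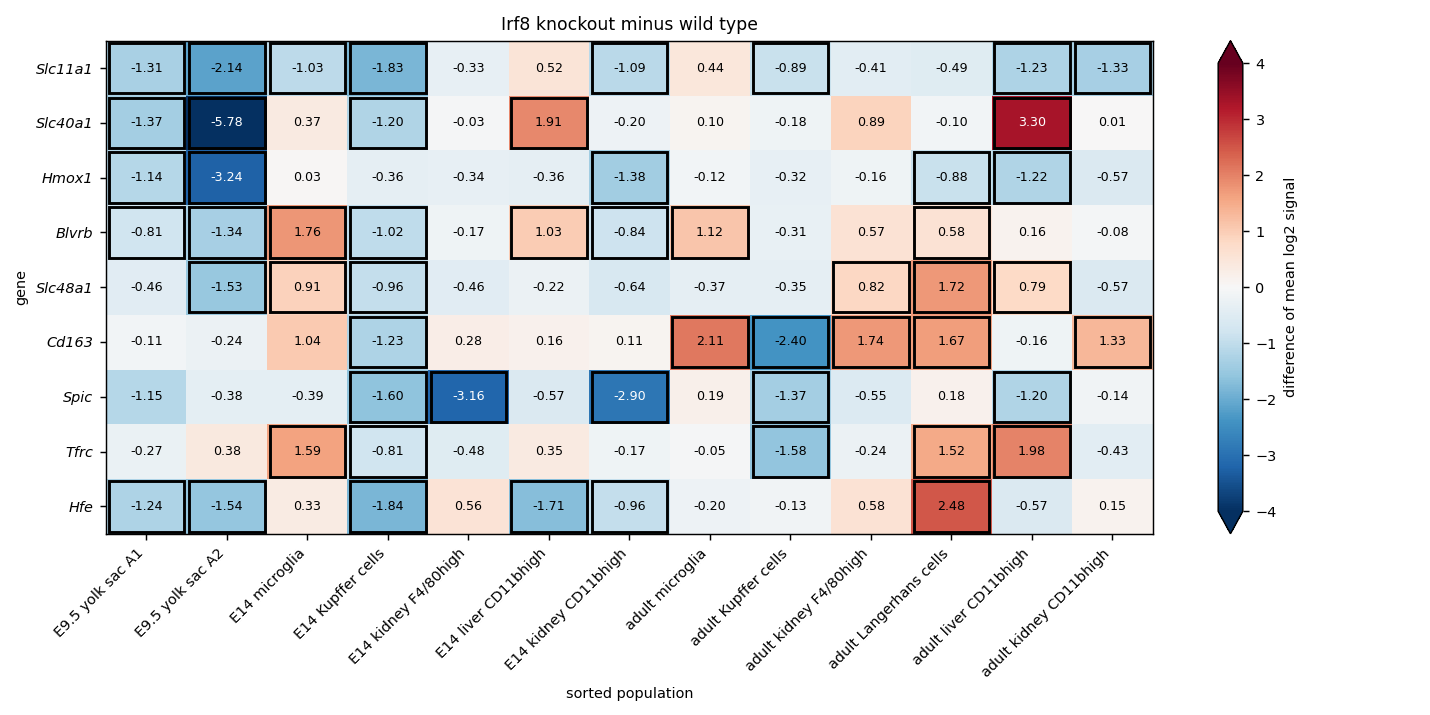
Knockout minus wild type (log2) for each gene, in rows, and each of the 13 populations, in columns, with the value printed in the cell; a black frame marks an adjusted p under 0.05. The A2, A1 and E14 Kupffer columns hold framed cells in the lower direction only, and Slc40a1 spans -5.78 in A2 cells to 3.30 in adult liver CD11bhigh macrophages.

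Ferroportin (Slc40a1), the iron exporter, gave the widest span of the 9 genes. In A2 cells it read 2.58, 2.62 and 2.34 in the knockout, against 8.36, 8.47 and 8.06 in wild type. Every knockout sample lay under the floor while the wild type stood with microglia, so the knockout was at least 38.2-fold lower (log2 -5.78 ± 0.34, adjusted p = 9.6e-22). In adult liver CD11bhigh macrophages the direction turned: 7.43, 6.87 and 7.02 in the knockout, against 3.84, 3.61 and 3.98 in wild type, a difference of 3.30 ± 0.34, adjusted p = 3.5e-12, or 9.82-fold higher in the knockout. At E14 the same liver gate gave 7.55, 7.92 and 7.54 in the knockout, against 5.57, 5.78 and 5.92 in wild type (1.91 ± 0.34, adjusted p = 1.9e-05). Neither liver gate had overlapping samples. Neutrophil markers passed with it, 12 of 15 higher and 0 lower in the adult (9.97 to 10.26 in the knockout and 5.16 to 6.73 in wild type) and 4 of 15 higher and 0 lower at E14; their part was not tested. In the adult gate 6 of 6 B cell markers were also higher and 4 of 7 macrophage markers lower (7.41 to 7.84 in the knockout and 8.51 to 8.83 in wild type), beside the other differences of that gate given below.

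In A1 cells Slc40a1 read 3.02, 2.19 and 2.32 in the knockout, against 3.67, 4.05 and 3.93 in wild type, which put the knockout at least 1.79-fold lower (-1.37 ± 0.34, adjusted p = 0.0073). This call did not survive the removal of wild-type replicate 2 (-1.29, adjusted p = 0.051), knockout replicate 2 (-1.22, adjusted p = 0.068) or knockout replicate 3 (-1.28, adjusted p = 0.06). In E14 Kupffer cells it read 9.74, 9.63 and 8.79 in the knockout, against 10.27, 10.71 and 10.77 in wild type (-1.20 ± 0.34, adjusted p = 0.0055), a call lost without knockout replicate 3 (-0.90, adjusted p = 0.086). Adult Kupffer cells kept a high level in both genotypes, 11.0, 10.31 and 10.51 in the knockout, against 10.92, 10.61 and 10.83 in wild type, and did not pass (-0.18 ± 0.34, adjusted p = 0.81).

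Slc11a1, the phagosomal metal transporter, was lower in 8 populations. It read 5.56, 5.81 and 5.69 in the knockout, against 5.10, 5.47 and 4.94 in wild type in E14 liver CD11bhigh macrophages and did not pass there (0.52 ± 0.25, adjusted p = 0.19), but passed as higher with array weights (adjusted p = 0.038) and with the compared groups alone (adjusted p = 0.034). The widest gap was in A2 cells, 4.91, 4.96 and 4.28 in the knockout, against 7.03, 6.97 and 6.58 in wild type (-2.14 ± 0.25, adjusted p = 1.1e-09). E14 Kupffer cells gave 7.08, 7.03 and 6.36 in the knockout, against 8.66, 8.59 and 8.72 in wild type (-1.83 ± 0.25, adjusted p = 6.3e-08). In A1 cells the values were 3.90, 4.39 and 3.44 in the knockout, against 5.12, 4.77 and 5.76 in wild type (-1.31 ± 0.25, adjusted p = 3.1e-04), and in these populations no knockout sample reached a wild-type one.

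E14 microglia had lower Slc11a1 at 7.20, 7.23 and 7.42 in the knockout, against 8.23, 8.36 and 8.36 in wild type (-1.03 ± 0.25, adjusted p = 0.0023), while adult microglia, at 8.73, 8.30 and 8.85 in the knockout, against 8.18, 8.14 and 8.23 in wild type, did not pass (0.44 ± 0.25, adjusted p = 0.3). The remaining calls were -1.09 ± 0.25, adjusted p = 0.0013 in E14 kidney CD11bhigh, -1.23 ± 0.25, adjusted p = 1.6e-04 in adult liver CD11bhigh and -1.33 ± 0.25, adjusted p = 1.1e-04 in adult kidney CD11bhigh macrophages, and -0.89 ± 0.25, adjusted p = 0.013 in adult Kupffer cells. Neutrophil markers were higher in the adult kidney CD11bhigh knockout, 12 of 15 (7.68 to 8.51 in the knockout and 3.46 to 4.50 in wild type), and their part was not tested. The adult Kupffer call was lost without knockout replicate 2 (-0.67, adjusted p = 0.14) or 3 (-0.81, adjusted p = 0.054) and with array weights (adjusted p = 0.21). A fit of the compared groups alone ended it too (adjusted p = 0.19) and also ended the adult kidney CD11bhigh call (adjusted p = 0.19). Macrophage markers (7 genes) were lower beside it, 5 of them in A1 cells, with a mean signal of 4.76 to 5.40 in the knockout and 6.38 to 6.80 in wild type. In A2 cells 6 were lower (6.73 to 7.09 in the knockout and 8.36 to 8.66 in wild type), and in E14 Kupffer cells 6 (7.69 to 8.01 in the knockout and 9.0 to 9.27 in wild type). Their part in the differences of all 9 genes in these populations was not tested.

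Hmox1, which breaks heme down, was lower in 5 populations and passed higher in none. In A2 cells it read 8.20, 8.10 and 7.03 in the knockout, against 11.09, 11.20 and 10.75 in wild type, a difference of -3.24 ± 0.26, adjusted p = 8.2e-16, or 9.42-fold lower. In E14 kidney CD11bhigh macrophages it read 7.61, 8.73 and 9.31 in the knockout, against 9.94, 9.80 and 10.02 in wild type (-1.38 ± 0.26, adjusted p = 5.8e-05), a call that ended when the compared groups were fitted alone (adjusted p = 0.058). In adult liver CD11bhigh macrophages the values were 7.71, 8.20 and 8.61 in the knockout, against 9.53, 9.39 and 9.26 in wild type (-1.22 ± 0.26, adjusted p = 2.3e-04). None of these groups overlapped.

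The smaller Hmox1 differences were -1.14 ± 0.26, adjusted p = 0.0029 in A1 cells and -0.88 ± 0.26, adjusted p = 0.0061 in Langerhans cells, where leaving out wild-type replicate 3 ended the call (-0.73, adjusted p = 0.058). Kupffer cells of either age did not pass, with 11.34, 11.43 and 11.26 in the knockout, against 11.38, 11.89 and 11.83 in wild type at E14 (-0.36 ± 0.26, adjusted p = 0.37). At E14 it passed as lower with the compared groups fitted alone (adjusted p = 0.047), so whether all 9 genes or 8 passed there turned on that setting.

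Blvrb, the biliverdin reductase gene, went both ways. E14 microglia read 8.47, 8.26 and 8.36 in the knockout, against 6.21, 6.77 and 6.85 in wild type (1.76 ± 0.21, adjusted p = 9.8e-10), and adult microglia 6.62, 6.16 and 6.35 in the knockout, against 5.08, 5.39 and 5.29 in wild type (1.12 ± 0.21, adjusted p = 2.4e-05). It was higher without overlap at both ages. In E14 microglia 11 of 15 neutrophil and 6 of 6 monocyte markers were higher (8.02 to 8.54 in the knockout and 3.36 to 6.70 in wild type for neutrophil markers) and 4 of 7 microglia markers lower (7.26 to 7.63 in the knockout and 9.30 to 9.42 in wild type). In adult microglia 2 neutrophil markers were higher (4.88 to 6.35 in the knockout and 3.14 to 6.71 in wild type) and 3 microglia markers lower (8.42 to 8.48 in the knockout and 10.03 to 10.26 in wild type). The part of these shifts in the differences of microglia was not tested. It was also higher in E14 liver CD11bhigh macrophages (1.03 ± 0.21, adjusted p = 1.7e-04) and in Langerhans cells (0.58 ± 0.21, adjusted p = 0.026). The last did not pass once wild-type replicate 1 (0.54, adjusted p = 0.082) or 2 (0.59, adjusted p = 0.056) or knockout replicate 1 (0.48, adjusted p = 0.13) was removed.

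Blvrb was lower in A2 cells, 3.72, 4.22 and 4.30 in the knockout, against 5.55, 5.66 and 5.05 in wild type (-1.34 ± 0.21, adjusted p = 1.0e-06), in E14 Kupffer cells (-1.02 ± 0.21, adjusted p = 1.1e-04), in E14 kidney CD11bhigh macrophages (-0.84 ± 0.21, adjusted p = 0.0022) and in A1 cells (-0.81 ± 0.21, adjusted p = 0.011). The A1 call was lost when replicate 1 of wild type (-0.70, adjusted p = 0.088) or of the knockout (-0.76, adjusted p = 0.06) was left out. The erythroid list was lower with it in E14 Kupffer cells (0 of 9 higher and 4 lower, 6.60 to 7.04 in the knockout and 7.39 to 7.81 in wild type), which was not tested as its source.

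Slc48a1, the phagolysosomal heme transporter, was higher in Langerhans cells at 7.02, 6.77 and 6.92 in the knockout, against 4.60, 5.76 and 5.18 in wild type (1.72 ± 0.24, adjusted p = 2.3e-08). It was also higher in E14 microglia, at 7.94, 7.66 and 7.86 in the knockout, against 6.94, 6.86 and 6.93 in wild type (0.91 ± 0.24, adjusted p = 0.0042). It was lower in A2 cells at 5.94, 6.63 and 6.42 in the knockout, against 7.99, 8.04 and 7.54 in wild type (-1.53 ± 0.24, adjusted p = 1.2e-06) and in E14 Kupffer cells (-0.96 ± 0.24, adjusted p = 0.0014). These 4 populations had no overlap between genotypes. The adult liver CD11bhigh call (0.79 ± 0.24, adjusted p = 0.012) was lost when replicate 2 of wild type (0.62, adjusted p = 0.11) or of the knockout (0.65, adjusted p = 0.095) was left out. The adult kidney F4/80high call (0.82 ± 0.24, adjusted p = 0.031) was lost without knockout replicate 1 (0.79, adjusted p = 0.098), 2 (0.81, adjusted p = 0.1) or 3 (0.86, adjusted p = 0.072) or wild-type replicate 2 (0.81, adjusted p = 0.091) or 3 (0.72, adjusted p = 0.18).

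Cd163, the receptor for hemoglobin and haptoglobin, was lower in adult Kupffer cells, 6.80, 6.76 and 6.87 in the knockout, against 9.38, 9.27 and 8.97 in wild type, a difference of -2.40 ± 0.44, adjusted p = 6.6e-05, or 5.26-fold. The groups lay more than 2 log2 units apart at their nearest samples. It was higher in adult microglia, at 5.73, 5.19 and 5.08 in the knockout, against 3.08, 3.80 and 2.80 in wild type (2.11 ± 0.44, adjusted p = 2.1e-04), so the liver and brain populations moved in opposite directions. Langerhans cells read 5.30, 4.01 and 4.0 in the knockout, against 2.77, 2.38 and 3.14 in wild type (1.67 ± 0.44, adjusted p = 0.0021), with knockout replicate 1 the highest, and the call was lost without it (1.24, adjusted p = 0.0505).

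The kidney calls of Cd163 did not hold when certain samples were left out. In adult kidney F4/80high macrophages it read 7.83, 7.68 and 7.53 in the knockout, against 3.86, 7.13 and 6.84 in wild type (1.74 ± 0.44, adjusted p = 0.0099). Without wild-type replicate 1, the low sample, the difference was 0.69, adjusted p = 0.51, and a fit of the compared groups alone gave adjusted p = 0.31. In adult kidney CD11bhigh macrophages it read 5.69, 5.37 and 5.93 in the knockout, against 5.10, 3.74 and 4.17 in wild type (1.33 ± 0.44, adjusted p = 0.032). That call ended on removing wild-type replicate 2 (1.03, adjusted p = 0.19) or 3 (1.24, adjusted p = 0.076) or knockout replicate 1 (1.31, adjusted p = 0.064) or 3 (1.19, adjusted p = 0.11). Array weights (adjusted p = 0.22) and the compared groups alone (adjusted p = 0.19) ended it as well. E14 Kupffer cells read 3.09, 3.79 and 2.98 in the knockout, against 4.21, 4.17 and 5.17 in wild type (-1.23 ± 0.44, adjusted p = 0.033). This call was not kept without wild-type replicate 3 (-0.90, adjusted p = 0.21) or knockout replicate 1 (-1.13, adjusted p = 0.1) or 3 (-1.08, adjusted p = 0.13) or after quantile normalization (adjusted p = 0.058).

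Spic, the regulator, was lower in the E14 kidney under both gates. E14 kidney F4/80high macrophages read 4.01, 3.31 and 4.25 in the knockout, against 6.91 and 7.13 in wild type (-3.16 ± 0.40, adjusted p = 2.0e-07), and this was the only 1 of the 9 genes to pass there. E14 kidney CD11bhigh macrophages read 2.56, 2.57 and 2.98 in the knockout, against 5.96, 5.07 and 5.77 in wild type, all under the floor in the knockout, which was at least 5.9-fold lower (-2.90 ± 0.36, adjusted p = 9.8e-09). Neutrophil markers were higher in the CD11bhigh gate (10 of 15 higher and 0 lower, with a mean of at least 8.35 in every knockout sample and at most 7.48 in wild type) and macrophage markers lower (7.52 to 8.35 in the knockout and 9.07 to 9.12 in wild type), and their part was not tested. In the F4/80high gate the macrophage markers read 9.08 to 9.23 in the knockout and 9.18 to 9.33 in wild type, with none of 7 passing.

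In E14 Kupffer cells Spic read 8.47, 8.24 and 7.97 in the knockout, against 9.78, 9.87 and 9.83 in wild type (-1.60 ± 0.36, adjusted p = 4.8e-04). It stayed more than 4 log2 units above the floor in every one of these knockout samples. In adult Kupffer cells it read 8.38, 5.97 and 7.88 in the knockout, against 8.99, 8.55 and 8.81 in wild type (-1.37 ± 0.36, adjusted p = 0.0061), with knockout replicate 2 far below the other two. Without it the difference was -0.65, adjusted p = 0.3, and array weights and a fit of the compared groups alone gave adjusted p = 0.19 and 0.28. The adult liver CD11bhigh call (-1.20 ± 0.36, adjusted p = 0.013) did not hold without wild-type replicate 2 (-1.06, adjusted p = 0.07) or knockout replicate 3 (-0.95, adjusted p = 0.11). Endothelial markers were higher in the adult Kupffer knockout (8 of 9 higher and 0 lower, 7.88 to 8.35 in the knockout and 5.61 to 7.24 in wild type), beside the shift in sex-linked genes, and neither was tested as a source of the Kupffer differences.

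Tfrc, the transferrin receptor gene, was higher in adult liver CD11bhigh macrophages, at 7.24, 6.81 and 7.43 in the knockout, against 5.26, 5.26 and 5.01 in wild type (1.98 ± 0.22, adjusted p = 7.7e-11). E14 microglia read 6.23, 6.73 and 6.10 in the knockout, against 4.68, 4.77 and 4.82 in wild type (1.59 ± 0.22, adjusted p = 9.9e-08). Langerhans cells read 7.99, 7.62 and 7.47 in the knockout, against 6.06, 6.30 and 6.14 in wild type (1.52 ± 0.22, adjusted p = 9.6e-08). The genotypes did not overlap in any of these populations. Kupffer cells moved down instead. Adult Kupffer cells read 5.67, 4.42 and 4.87 in the knockout, against 7.03, 6.70 and 5.97 in wild type (-1.58 ± 0.22, adjusted p = 3.3e-07), but the adjusted p was 0.12 with the compared groups alone. E14 Kupffer cells read 8.49, 8.17 and 8.25 in the knockout, against 9.06, 9.07 and 9.20 in wild type (-0.81 ± 0.22, adjusted p = 0.0044), beside the lower erythroid list given above, whose part was not tested. Adult microglia read 4.63, 4.40 and 4.64 in the knockout, against 4.71, 4.68 and 4.43 in wild type and did not pass (-0.05 ± 0.22, adjusted p = 0.95).

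Hfe, whose product binds the transferrin receptor, was higher in Langerhans cells, 5.88, 5.65 and 5.33 in the knockout, against 3.47, 2.83 and 3.12 in wild type (2.48 ± 0.30, adjusted p = 6.5e-10). The wild-type cells were near the floor and the knockout cells above 5 in every sample. It was lower in E14 Kupffer cells, 6.30, 6.65 and 6.07 in the knockout, against 8.12, 8.06 and 8.37 in wild type (-1.84 ± 0.30, adjusted p = 2.2e-06). E14 liver CD11bhigh macrophages read 3.55, 2.90 and 4.34 in the knockout, against 5.60, 4.85 and 5.48 in wild type (-1.71 ± 0.30, adjusted p = 1.7e-05). A2 cells read 3.92, 4.45 and 3.59 in the knockout, against 5.55, 5.83 and 5.20 in wild type (-1.54 ± 0.30, adjusted p = 1.1e-04). No sample of the knockout reached the wild type in those 3 populations.

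The other Hfe calls were fragile. In A1 cells (-1.24 ± 0.30, adjusted p = 0.006) the call was lost when replicate 2 of wild type (-1.03, adjusted p = 0.099) or of the knockout (-1.12, adjusted p = 0.054) was left out. In E14 kidney CD11bhigh macrophages (-0.96 ± 0.30, adjusted p = 0.021) it depended on wild-type replicate 1 (-0.75, adjusted p = 0.15 without it) and knockout replicate 1 (-0.92, adjusted p = 0.075) or 3 (-0.85, adjusted p = 0.073). The compared groups alone gave adjusted p = 0.078. Keratinocyte markers, 5 of 5 higher and 0 lower in the Langerhans knockout (9.76 to 9.96 in the knockout and 7.61 to 7.81 in wild type), moved with the Langerhans differences given above and were not tested as a source.

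**Figure D3:**
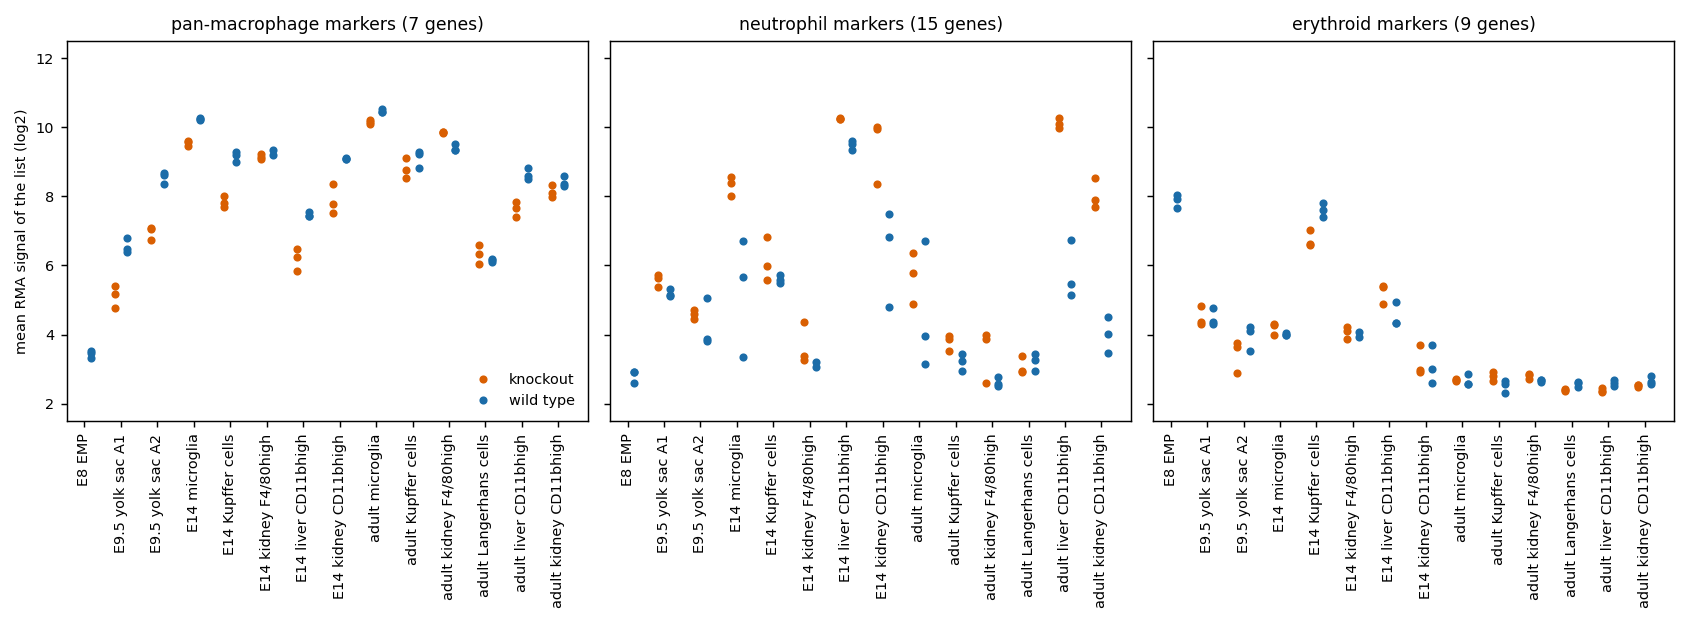
Mean log2 signal per sample of pan-macrophage (7 genes), neutrophil (15) and erythroid (9) marker lists (vertical axis) in each population (horizontal axis), knockout in orange left of wild type in blue. Macrophage markers lie lower in the knockout of A1, A2 and E14 Kupffer cells and of adult liver and E14 kidney CD11bhigh macrophages. Neutrophil markers lie higher in the knockout of E14 microglia and of the liver and kidney CD11bhigh gates at E14 and in adults. Erythroid markers are above 6 in EMP and E14 Kupffer cells alone.

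Whether the effect of the genotype differed between ages or organs was tested as a difference of the knockout effects. Between adult and E14 microglia 3 of the 9 genes passed, against 10.5% of all genes, and among them the Tfrc effect was lower in the adult by 1.64 (log2 -1.64 ± 0.31, adjusted p = 1.3e-04). Between adult and E14 Kupffer cells 1 passed, against 16.3%, and it was Hfe, at 1.71 ± 0.42, adjusted p = 0.0026. Spic was the 1 gene to pass between adult and E14 kidney, both for F4/80high macrophages (2.61 ± 0.54, adjusted p = 0.0034, where 1.04% of all genes passed) and for CD11bhigh macrophages (2.76 ± 0.51, adjusted p = 8.3e-05, against 13.2%). Adult kidney F4/80high macrophages held Spic at 7.48, 7.54 and 7.33 in the knockout, against 8.0, 8.20 and 7.81 in wild type, and that difference did not pass (-0.55 ± 0.36, adjusted p = 0.61).

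Between adult and E14 liver CD11bhigh macrophages 5 passed, against 14.5%, with Slc11a1 at -1.74 ± 0.36, adjusted p = 2.3e-04 and Tfrc at 1.63 ± 0.31, adjusted p = 7.9e-05. Between adult Kupffer cells and adult microglia 5 passed, against 12.8%, with Cd163 at -4.51 ± 0.62, adjusted p = 7.7e-08. Adult Kupffer cells against adult kidney F4/80high macrophages gave 3, against 4.64%, with Cd163 at -4.13 ± 0.62, adjusted p = 5.2e-06, and adult microglia against adult kidney F4/80high macrophages gave 1, Slc48a1, against 8.36%, which was lost without adult microglia knockout replicate 2 (-0.93, adjusted p = 0.094). Over the 8 such comparisons 20 of 72 differences passed, or 27.8%, against 10.2% over all genes.

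Wild-type populations were next compared with each other, which gives the course of the genes along development and between organs. From EMP to A1 cells 5 of 9 genes were higher and 2 lower, against 22.7% of all genes passing. Blvrb was lower in A1 cells, at a log2 difference of -3.64 ± 0.21 (5.36, 5.09 and 5.02 in A1 cells against 8.95, 8.64 and 8.81 in EMP), and so was Tfrc at -1.76 ± 0.22. The erythroid list moved with both, at 4.31 to 4.76 in A1 cells and 7.66 to 8.04 in EMP, and its part was not tested. When 1 sample was left out, calls were lost for Hfe in 1 of 6 fits (0.82 to 1.42, adjusted p of at most 0.066) and Spic in 1 of 6 fits (1.04 to 1.56, adjusted p of at most 0.059). Spic lay under the floor in every EMP sample (at most 2.94), so its rise to A1 cells gives a direction but no size. From A1 to A2 cells 5 were higher and 1 lower, against 11.4%. The lower one was Spic (-1.05 ± 0.36, adjusted p = 0.047), which was lost in 5 of 6 fits that left out a sample (-1.31 to -0.80, adjusted p of at most 0.27), and also after quantile normalization (adjusted p = 0.058), after median centring (0.073) and with no filter (0.058). Every A2 sample of Spic lay under the floor (at most 2.76), so that difference gives a direction but no size. Slc40a1 was higher in A2 cells by 4.41 ± 0.34 (8.36, 8.47 and 8.06 in A2 against 3.67, 4.05 and 3.93 in A1 cells) and Hmox1 by 3.35 ± 0.26 (adjusted p = 1.8e-16 and 2.8e-16). In the knockout A2 samples both genes lay below every wild-type A2 sample, as given above.

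From A2 cells the E14 organs parted. E14 Kupffer cells had all 9 genes higher than A2 cells, against 25.6% of all genes, with Spic at least 111-fold higher (A2 cells being under the floor), Blvrb higher by 3.57 ± 0.21 and Tfrc by 2.23 ± 0.22. The erythroid list stood at 7.39 to 7.81 in E14 Kupffer cells and 3.51 to 4.22 in A2 cells, and its part in these differences was not tested. Hmox1, the smallest of the 9 (0.69 ± 0.26, adjusted p = 0.04), was lost after median centring (adjusted p = 0.073), with no filter (0.051) and without an intensity trend (0.053), and in 4 of 6 fits that left out a sample (0.56 to 0.85, adjusted p of at most 0.18). E14 kidney F4/80high macrophages had 4 higher and none lower, against 18.2%, Spic being at least 15.8-fold higher. E14 microglia had 4 higher and 3 lower, against 29.2%, with Tfrc at -2.12 ± 0.22. Leaving out 1 sample ended calls for Tfrc in 2 of 5 fits (0.72 to 1.09, adjusted p of at most 0.057) in the kidney, and for Cd163 in 3 of 6 fits (0.72 to 2.15, adjusted p of at most 0.29) and Hmox1 in 3 of 6 fits (-0.87 to -0.65, adjusted p of at most 0.098) in microglia, where the compared groups alone also ended Cd163 (adjusted p = 0.071).

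From E14 to the adult most calls were lower. Adult microglia had 3 lower and none higher than E14 microglia, against 18.3%, with Hmox1 at -2.80 ± 0.26 (7.26, 7.70 and 7.45 in adult against 10.19, 10.34 and 10.29 in E14 microglia). Adult Kupffer cells had 4 lower and 1 higher, against 30%: Tfrc at -2.54 ± 0.22 (7.03, 6.70 and 5.97 in adult against 9.06, 9.07 and 9.20 in E14) and Cd163 at 4.69 ± 0.44. Every adult Kupffer sample lay above every E14 Kupffer sample for Cd163, and below for Tfrc. The erythroid list was at 2.29 to 2.66 in adult and 7.39 to 7.81 in E14 Kupffer cells, and its part in the Tfrc difference was not tested. Adult kidney F4/80high macrophages had 5 lower and 2 higher, against 28.2%, with Tfrc at -2.23 ± 0.25 and Slc40a1 at -1.84 ± 0.38. Leaving out 1 sample ended calls for Blvrb in 2 of 6 fits (-0.73 to -0.54, adjusted p of at most 0.078) and Spic in 2 of 6 fits (-1.15 to -0.93, adjusted p of at most 0.082) in Kupffer cells and for Hmox1 in 1 of 5 fits (-1.46 to -0.92, adjusted p of at most 0.064) in the kidney. Quantile normalization ended Blvrb (adjusted p = 0.06), and the compared groups alone ended Cd163 in the kidney (0.087).

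The CD11bhigh gates changed with age as well: the adult liver gate had 5 higher and 3 lower than at E14, against 34.3%, with Spic at 3.37 ± 0.36 and Tfrc at -2.50 ± 0.22. Neutrophil markers moved with age there, at 5.16 to 6.73 in the adult and 9.35 to 9.60 at E14. The adult kidney gate had 2 higher and 3 lower, against 35%, with Slc40a1 at -1.93 ± 0.34 and Tfrc at -1.26 ± 0.22, beside neutrophil markers at 3.46 to 4.50 in the adult and 4.81 to 7.48 at E14. The part of neutrophil RNA in either gate was not tested. Leaving out 1 sample ended calls for Cd163 in 2 of 6 fits (1.05 to 1.37, adjusted p of at most 0.1) and Slc48a1 in 5 of 6 fits (-0.71 to -0.42, adjusted p of at most 0.25) in the liver and for Cd163 in 1 of 6 fits (1.07 to 1.75, adjusted p of at most 0.082) in the kidney. Cd163 lay under the floor in every E14 sample of both gates (at most 2.88 in liver and 2.98 in kidney), so its differences give a direction but no size. Slc48a1 in the liver was also lost after quantile normalization (adjusted p = 0.095), with no filter (0.056) and without an intensity trend (0.053), and Cd163 in the kidney with array weights (0.088). Tfrc was lower in the adult in 4 of these 5 pairs, and did not pass in microglia, where it was low at both ages. Along development 61 of 90 differences passed, or 67.8%, against 25.3% of all genes, and 48 of the 61 passed in every fit that left out 1 sample.

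**Figure D4:**
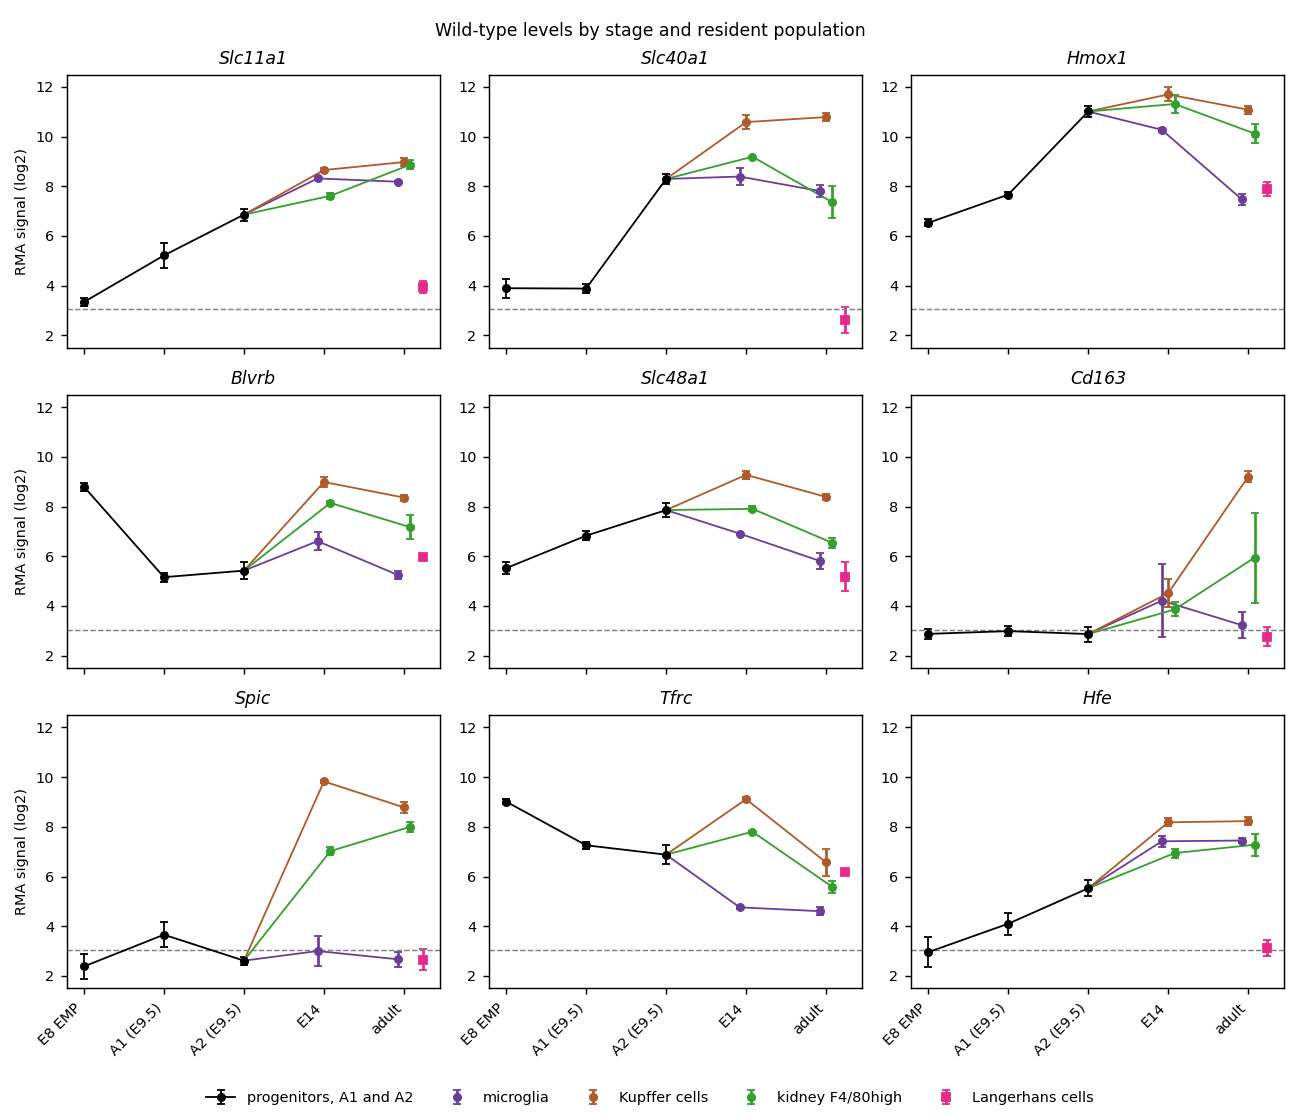
Mean ± SD of the log2 signal of each gene (vertical axis) in wild type by stage (horizontal axis: EMP, A1, A2, E14, adult), with lines that join A2 cells to E14 and adult microglia, Kupffer cells and kidney F4/80high macrophages; n = 3 except E14 kidney F4/80high with 2. Cd163 is at 9.21 in adult and at 4.52 in E14 Kupffer cells, and Tfrc at 6.57 in adult and 9.11 in E14 Kupffer cells.

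Among adult wild-type populations, Kupffer cells had all 9 genes higher than microglia, against 37.3% of all genes passing, and 7 of 9 higher than kidney F4/80high macrophages, against 25.2%. Against microglia, Spic was at least 53.5-fold higher, Cd163 higher by 5.98 ± 0.44, Hmox1 by 3.61 ± 0.26 and Slc40a1 by 2.98 ± 0.34. Against the kidney, Slc40a1 was higher by 3.43 ± 0.34, while Slc11a1 (0.11 ± 0.25, adjusted p = 0.82) and Spic (0.78 ± 0.36, adjusted p = 0.11) did not pass. Against Langerhans cells Kupffer cells had 8 higher, against 48.7%, with Slc40a1 higher by 8.18 ± 0.34, 2 of the 3 Langerhans samples being under the floor. When 1 sample was left out, calls were lost for Hfe in 5 of 6 fits (0.69 to 0.83, adjusted p of at most 0.11) against microglia, leaving 8 of 9, and for Hfe in 2 of 6 fits (0.71 to 1.15, adjusted p of at most 0.12) against the kidney. Array weights ended the same Hfe calls (adjusted p = 0.069 and 0.058).

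Kidney F4/80high macrophages had 7 genes higher than microglia and none lower, against 25.1%, and 8 higher and 1 lower than Langerhans cells, against 46.4%. Microglia had 4 higher and 2 lower than Langerhans cells, against 46.9%: Slc40a1 at 5.20 ± 0.34, Hfe at 4.31 ± 0.30 and Slc11a1 at 4.23 ± 0.25 were higher, and Tfrc at -1.56 ± 0.22 was lower. Spic was near the floor in both. Leaving out 1 sample ended calls for Slc11a1 in 5 of 6 fits (0.63 to 0.78, adjusted p of at most 0.11) and Slc48a1 in 2 of 6 fits (0.53 to 0.83, adjusted p of at most 0.15) between kidney and microglia. It also ended Tfrc in 3 of 6 fits (-0.71 to -0.48, adjusted p of at most 0.12) between kidney and Langerhans cells and Slc48a1 in 3 of 6 fits (0.34 to 0.92, adjusted p of at most 0.3) between microglia and Langerhans cells. Median centring ended the first of these (adjusted p = 0.083) and the compared groups alone the second (0.069). Of the 46 calls between adult populations, 40 passed in every fit that left out 1 sample.

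The liver stood out at E14 too. E14 Kupffer cells had 6 genes higher than E14 microglia, against 22.3%, with Spic at 6.83 ± 0.36 and Tfrc at 4.35 ± 0.22. They had 7 higher than E14 kidney F4/80high macrophages, against 18.3%, with Spic at 2.81 ± 0.40 and Slc40a1 at 1.40 ± 0.38. E14 kidney F4/80high macrophages had 5 higher than E14 microglia, against 20.2%, with Spic at 4.02 ± 0.40 and Tfrc at 3.05 ± 0.25. None of the 9 passed lower in these 3 comparisons. The erythroid list was at 7.39 to 7.81 in E14 Kupffer cells, 3.94 to 4.08 in kidney F4/80high macrophages and 3.99 to 4.06 in microglia, and its part was not tested. Of the 18 calls 5 were lost when 1 of the 2 kidney samples was left out. Between Kupffer cells and kidney these were Blvrb in 1 of 5 fits (0.75 to 0.94, adjusted p of at most 0.07), Hfe in 1 of 5 fits (1.11 to 1.37, adjusted p of at most 0.081) and Slc11a1 in 1 of 5 fits (0.95 to 1.13, adjusted p of at most 0.079), and between kidney and microglia Hmox1 in 1 of 5 fits (0.77 to 1.31, adjusted p of at most 0.17) and Slc48a1 in 1 of 5 fits (0.92 to 1.07, adjusted p of at most 0.058).

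Within an organ the CD11bhigh gate was set against the resident gate. In the E14 liver all 9 genes were lower in CD11bhigh macrophages than in Kupffer cells, against 24.6% of all genes, led by Spic at -6.92 ± 0.36, Slc40a1 at -4.83 ± 0.34 and Hmox1 at -3.90 ± 0.26. In the adult liver all 9 were lower again, against 28%, with Slc40a1 at -6.98 ± 0.34 (3.84, 3.61 and 3.98 in CD11bhigh macrophages against 10.92, 10.61 and 10.83 in Kupffer cells) and Cd163 at -5.15 ± 0.44. Of these 9 calls 7 passed in every fit that left out 1 sample, and those lost were Hfe in 5 of 6 fits (-1.05 to -0.58, adjusted p of at most 0.22) and Slc11a1 in 3 of 6 fits (-0.88 to -0.54, adjusted p of at most 0.18). Array weights ended both (adjusted p = 0.095 and 0.062) and the fit with no filter ended Hfe (0.052). Neutrophil markers were at 9.35 to 9.60 in CD11bhigh macrophages and 5.50 to 5.73 in Kupffer cells at E14, and at 5.16 to 6.73 in CD11bhigh macrophages and 2.95 to 3.43 in Kupffer cells in the adult; their part was not tested. The E14 kidney gates differed in 6 genes, all lower, against 5.81%, with Slc40a1 at -2.70 ± 0.38 and Blvrb at -1.53 ± 0.23, but 4 of the 6 calls were lost when 1 sample was left out. In the adult kidney 6 were lower and 2 higher, against 23.6%, with Slc40a1 at -2.79 ± 0.34, Spic at -2.73 ± 0.36 and Blvrb at -1.84 ± 0.21 lower and Tfrc higher at 0.96 ± 0.22. Here 4 of the 8 calls were lost when 1 sample was left out, those of Cd163, Hmox1, Slc11a1 and Slc48a1. Both higher calls were lost when the compared groups were fitted alone, and so were the lower calls of Cd163 (adjusted p = 0.28) and Hmox1 (0.12). Array weights ended Hmox1 (0.067), Slc11a1 (0.084) and the higher Slc48a1 call (0.2).

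**Figure D5:**
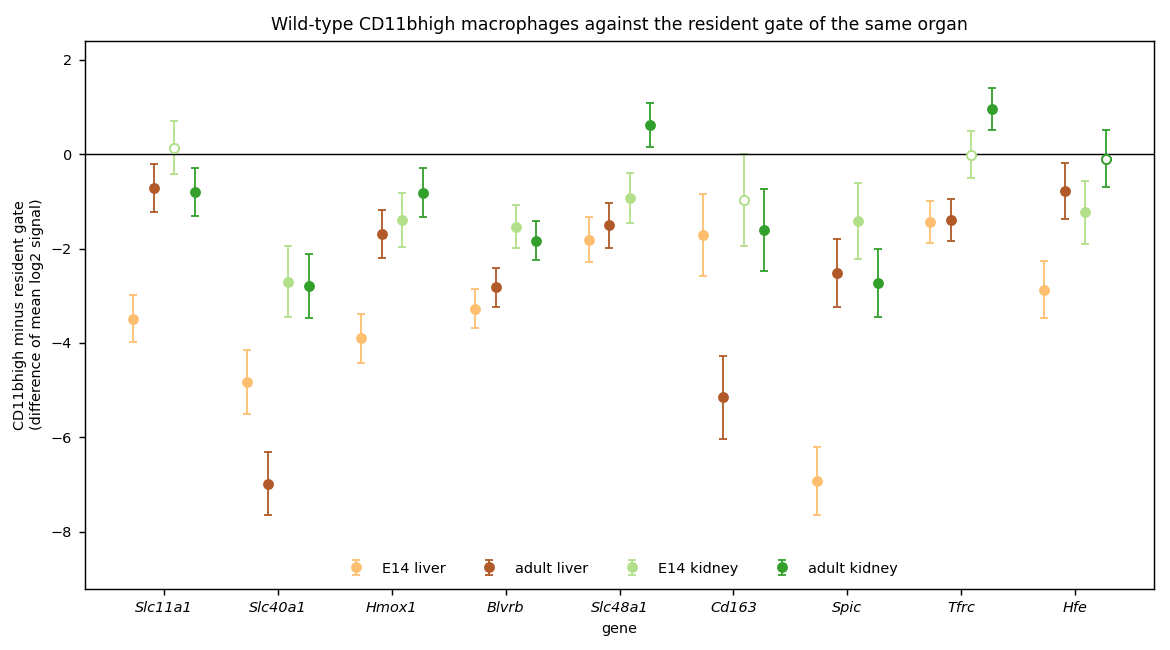
Difference in mean log2 signal between wild-type CD11bhigh macrophages and the resident gate (Kupffer cells or kidney F4/80high macrophages) of the same organ and age (vertical axis) for each gene (horizontal axis); bars are 95% confidence intervals and open circles did not pass. All liver differences lie under 0, and Slc40a1 lies lower than -2 in every organ and age.

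Other genes of iron and heme handling were taken from lists made by role, 81 genes besides the 9, of which 70 were tested. In E14 Kupffer cells, where 23% of all genes passed, 5 of 7 heme synthesis genes were lower and none higher in the knockout, among them Cpox (-1.78 ± 0.29), Ppox (-1.53 ± 0.22) and Fech (-1.13 ± 0.29), which encode the last enzymes of the pathway. The erythroid list was lower in the same samples, as given above, and its part was not tested. There 4 of 11 genes of heme and hemoglobin uptake, breakdown and export were lower and 1 higher: Lrp1, a receptor for hemopexin-bound heme, was at -1.95 ± 0.22, Blvra, the other biliverdin reductase, at -0.92 ± 0.19 and haptoglobin (Hp) higher at 1.85 ± 0.51. In the red pulp type macrophage list 4 of 4 were lower, with Vcam1 at -4.24 ± 0.46. In A2 cells 10% of all genes passed, and the lists lay near that share: the uptake and breakdown list had 2 of 11 lower, Lrp1 at -1.14 ± 0.22 and Blvra at -0.88 ± 0.19, and 1 of 12 genes of the BACH1 and NRF2 axis was lower, Bach1, the heme-sensing repressor of Hmox1, at -1.04 ± 0.17.

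In Langerhans cells heme synthesis had 5 of 7 genes higher and 1 lower, against 27% of all genes passing, beside the keratinocyte markers given above. Alad was at 1.86 ± 0.25, Cpox at 1.62 ± 0.29 and Urod at 1.22 ± 0.20. Slc46a1, which carries heme and folate, was higher there at 1.90 ± 0.30, and Slc11a2, the endosomal iron transporter DMT1, lower at -1.97 ± 0.34. Adult Kupffer cells had 4 of 13 genes of iron sensing and hepcidin control higher and none lower, against 11.9% of all genes, including Bmp2 (2.45 ± 0.37) and Bmp6 (1.95 ± 0.31), ligands that act on hepcidin in hepatocytes and that liver endothelium makes, and Hamp2 (3.79 ± 0.32), a hepcidin paralog. The endothelial list was higher in the same samples, as given above, and its part in Bmp2 and Bmp6 was not tested. Bmp2 was also higher in knockout populations outside the liver, as given under other observations.

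Ceruloplasmin (Cp), the ferroxidase that works with ferroportin, was higher in knockout adult microglia by 6.41 ± 0.47 and in adult kidney F4/80high macrophages by 1.75 ± 0.47 on the log2 scale. Lcn2 and Ltf encode neutrophil granule proteins that bind siderophores and iron. They were higher in E14 microglia (4.16 ± 0.65 and 3.73 ± 0.65), in E14 kidney CD11bhigh (4.70 ± 0.65 and 5.25 ± 0.65), in adult liver CD11bhigh (4.76 ± 0.65 and 5.75 ± 0.65) and in adult kidney CD11bhigh macrophages (5.73 ± 0.65 and 6.58 ± 0.65). Both are members of the neutrophil list, of which 10 to 12 of 15 passed higher in those populations.

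Genes with the most similar pattern over the 27 group means were named for each member as a description; the points share groups with very different levels of macrophage markers. Slc11a1 ran closest to Lgals3bp, Irgm2 and Mpeg1 (Pearson r 0.94, 0.94 and 0.94), Hfe to Hpgd, Ctsa and Parp12 (0.94, 0.93 and 0.93) and Spic to Sdc3, Gbp8 and Pltp (0.90, 0.88 and 0.86). Hmox1 ran closest to Blvra, the other biliverdin reductase gene, at 0.87, then to Lpl (0.87) and Fcgrt (0.86). Cd163 was nearest to Iigp1 (0.88), Slc40a1 to Plod1 (0.87), Tfrc to Tmem107 (0.86), Slc48a1 to Dhrs1 (0.83) and Blvrb to Hebp1 (0.80), a heme-binding protein gene. Among the 9 themselves the pair most alike was Slc11a1 and Hfe (0.87), and the least alike Slc11a1 and Tfrc (-0.48).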

How the data were processed

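RNA of sorted macrophages was amplified (Ovation PicoSL WTA V2), biotin-labelled and run on Affymetrix arrays, per the labels' protocols. The deposited values are log2 signals that the authors made by RMA, and the submitters' processing notes name Affymetrix Expression Console as the tool. Versions and settings were not given in the sources used here. RMA normalizes all arrays together, which can hide shifts shared by most genes. The table holds 41345 probes on 81 arrays, with array medians of 2.94 to 3.19; 23521 probes have 1 gene symbol, 1814 several, and 16010 are not listed. The brightest probe stood for each of 22180 genes. Both runs of 1 A2 knockout sample (r = 0.984, against at most 0.980 for other pairs of its group) were averaged, leaving 80 samples. The 17099 genes above 3.04 in at least 2 arrays were fitted in limma 3.58.1 (R 4.3.3) with a mean per group and a trended prior (53 residual degrees of freedom), with Benjamini-Hochberg adjustment over all genes within each comparison and a threshold of 0.05. The number of arrays limits the precision. The members and lists were chosen with earlier results of these data known. Named besides the members are the 3 genes most correlated with each and up to 3 per list and knockout comparison among those that passed. Alternatives were array weights, only the compared groups, a replicate block, quantile normalization, median centring, other filters, 1 run of the repeated sample, no trend, the mean of a gene's probes, each sample left out, and, chosen after seeing the data, a block for gates whose titles share a number.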

Additional observations from a re-analysis of the deposited data

Results flagged for a closer look

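The knockout effect on a member differed between ages or organs in 20 of the 72 differences of effects tested with limma across all genes, each value being the first population's effect minus the second's on the log2 scale. Between adult and E14 microglia these were Slc11a1 (1.47 ± 0.36, adjusted p = 0.0033), Slc48a1 (-1.28 ± 0.33, adjusted p = 0.0062) and Tfrc (-1.64 ± 0.31, adjusted p = 1.3e-04). Tfrc and Slc48a1 were higher in the knockout at E14 and did not pass in the adult, and Slc11a1 was lower at E14 and did not pass in the adult. Between adult and E14 Kupffer cells Hfe stood out (1.71 ± 0.42, adjusted p = 0.0026), being lower in the knockout at E14 alone past the threshold.

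Spic differed between adult and E14 kidney in F4/80high (2.61 ± 0.54, adjusted p = 0.0034) and CD11bhigh macrophages (2.76 ± 0.51, adjusted p = 8.3e-05), being lower in the knockout at E14 under both gates. In liver CD11bhigh macrophages the adult effect exceeded the E14 effect for Tfrc (1.63 ± 0.31, adjusted p = 7.9e-05), Slc40a1 (1.38 ± 0.48, adjusted p = 0.039) and Slc48a1 (1.01 ± 0.33, adjusted p = 0.029) and lay below it for Slc11a1 (-1.74 ± 0.36, adjusted p = 2.3e-04) and Blvrb (-0.87 ± 0.29, adjusted p = 0.031).

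Between adult Kupffer cells and adult microglia the differences were Cd163 (-4.51 ± 0.62, adjusted p = 7.7e-08), Spic (-1.57 ± 0.51, adjusted p = 0.03), Tfrc (-1.54 ± 0.31, adjusted p = 2.3e-04), Blvrb (-1.43 ± 0.29, adjusted p = 2.2e-04) and Slc11a1 (-1.33 ± 0.36, adjusted p = 0.0065). Spic was near the floor in microglia of both genotypes (means of 2.86 in the knockout and 2.67 in wild type). A lower level could not show there, so its difference rests on the Kupffer cells. Cd163 was lower in knockout Kupffer cells and higher in knockout microglia, both past the threshold. Between adult Kupffer cells and kidney F4/80high macrophages they were Cd163 (-4.13 ± 0.62, adjusted p = 5.2e-06), Tfrc (-1.34 ± 0.31, adjusted p = 0.005) and Slc48a1 (-1.17 ± 0.33, adjusted p = 0.027), and between adult microglia and kidney F4/80high macrophages Slc48a1 (-1.19 ± 0.33, adjusted p = 0.013). Leaving out 1 sample at a time ended 6 of the 20 calls. In liver CD11bhigh macrophages Slc40a1 was lost in 8 of 12 such fits (1.22 to 1.51), Blvrb in 5 (-1.01 to -0.68) and Slc48a1 in 4 (0.85 to 1.14), with adjusted p of at most 0.105, 0.142 and 0.109. Spic between Kupffer cells and microglia was lost in 5 (-2.05 to -0.85, the last without adult Kupffer knockout replicate 2, adjusted p = 0.28), Slc48a1 between Kupffer cells and kidney in 5 (-1.42 to -0.92, the last without the same sample, adjusted p = 0.15), and Slc48a1 between microglia and kidney in 1, without adult microglia knockout replicate 2 (-0.93, adjusted p = 0.094). With the compared groups fitted alone, Tfrc (adjusted p = 0.073) and Spic (0.2) between Kupffer cells and microglia and Tfrc (0.32) and Slc48a1 (0.15) between Kupffer cells and kidney did not pass, and array weights ended Spic (0.16) and Slc48a1 (0.11) there. Median centring ended Blvrb in liver CD11bhigh macrophages (0.051).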

How the results depend on the processing

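None of the 231 member differences that passed changed sign under an alternative. Of the 165 that did not pass, 46 did, 13 of them with all samples kept, each with a size of at most 0.373 here, and none passed after the turn. Of the 231 member differences that passed, the number that passed again was 231 with a replicate block, 231 with the floor at the 75th percentile, 231 with either run of the repeated sample alone and 231 with the mean of a gene's probes, 228 without an intensity trend, 227 after quantile normalization, 227 after median centring, 226 with no filter, 218 under array weights and 212 when the compared groups were fitted alone. Of the 54 knockout calls, 8 were lost when the compared groups were fitted alone, 3 with array weights and 1 after quantile normalization. Across the alternatives that kept all samples, knockout calls numbered 18 to 19 higher and 32 to 38 lower. With the replicate block they were 18 higher and 36 lower; the replicate numbers did not pair the samples, since deviations of same-numbered samples correlated between -0.18 and 0.15 over 38 pairs and in 0 of 13 populations was every pair over 0.1. Titles give both gates of an organ the same numbers. Deviations of same-numbered wild-type samples correlated between -0.01 and 0.06 in the livers and the E14 kidney. In the adult kidney they correlated at 0.39, 0.099 and 0.096, each higher than in the other gates. The main fit pairs no gates, so p-values for the adult kidney gates treat samples as independent. Whether those gates came from shared preparations was not tested. With a replicate block for those numbers, gate calls were 1 higher (2 without it) and 30 lower, the adult kidney Slc48a1 call being lost (adjusted p = 0.056). Median centring moved the median of all genes in Langerhans cells to 0.11 from -0.01. Counts that moved by over 1.5 times were small ones: lower calls between E14 tissues were 0, against 1 under array weights and 2 with the compared groups alone, and higher calls between gates were 2, against 1 under array weights, 0 with the compared groups alone, 1 with no filter and 1 without an intensity trend; the cause was not tested. Leaving out 1 sample gave 0 to 1 lower calls between E14 tissues, 1 to 2 higher calls between gates, and 5 to 11 higher calls (7 with all samples) among differences of knockout effects; 38 of the 54 knockout calls passed in every such fit. With 2 or 3 samples a group, a difference that did not pass is not shown to be absent, and signals near 3.04 limit what can be read of Spic, Cd163 and Slc40a1 there.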

Other observations

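Genes of the iron and heme lists that were not described above also passed between genotypes. Siglec1, a macrophage adhesion receptor, was higher in knockout adult microglia (4.97 ± 0.36 on the log2 scale) and E14 microglia (2.53 ± 0.36) and lower in E14 Kupffer cells (-2.33 ± 0.36). Vcam1 was lower in adult kidney F4/80high macrophages (-4.59 ± 0.46), E14 kidney F4/80high macrophages (-2.64 ± 0.52) and adult Kupffer cells (-2.50 ± 0.46), beside its drop in E14 Kupffer cells. Bmp2 was higher in E14 microglia (2.60 ± 0.37), E14 Kupffer cells (1.40 ± 0.37), E14 kidney F4/80high macrophages (1.88 ± 0.42), adult microglia (1.30 ± 0.37), adult kidney F4/80high macrophages (1.86 ± 0.37) and Langerhans cells (2.03 ± 0.37).

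Slc7a11, the cystine transporter and an NRF2 target, was lower in A1 cells (-1.79 ± 0.49), Langerhans cells (-2.25 ± 0.49) and adult kidney CD11bhigh macrophages (-2.50 ± 0.49) and higher in E14 liver CD11bhigh macrophages (1.54 ± 0.49), where 5 of 12 genes of the BACH1 and NRF2 axis were higher and none lower, against 14% of all genes passing. Alas1, which starts heme synthesis, was higher in adult liver CD11bhigh macrophages (2.21 ± 0.22). Ferritin heavy chain (Fth1) moved little where it passed, with -0.23 ± 0.07 in A2 cells and 0.43 ± 0.07 in adult microglia.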
